A study of Apis mellifera with 12 samples.

Results

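SIFamide and FMRFamide are short amidated neuropeptides, and the 2 honeybee genes described here encode their precursors: LOC100578023 (SIFamide) and LOC100578542 (FMRFamide). They were chosen by name out of 12292 genes of the single-cell data and 11345 genes of the bulk data, with their levels, their strongly expressing cells and their caste pattern already known, so their levels, also between classes of cells, are given as a description with no test. The samples were whole brains of adult honeybees (*Apis mellifera*) of 3 female groups: mated queens that had been reared and inseminated artificially, foragers that carried pollen, and nurses that were seen tending larvae. Foragers and nurses, both workers, came from the same colony. Each group gave 2 single-cell libraries and 2 bulk RNA-seq libraries, each from pooled brains (5 per bulk library), so the spread between libraries is a spread between pools.

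Neuropeptides are cut from longer precursors by convertases in the secretory pathway, amidated, and released to act on G protein-coupled receptors of other cells. In *Drosophila*, SIFamide is made by a handful of large neurosecretory neurons of the dorsal brain whose processes reach most of the neuropil, and it is known for effects on courtship, sleep and feeding. FMRFamide peptides end in Phe-Met-Arg-Phe-amide. In flies they are known from scattered central neurons and neurosecretory cells and as modulators of muscle contraction. SIFR encodes the SIFamide receptor.

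In the RefSeq annotation of the Amel_HAv3.1 assembly, SIFamide is a gene of 1148 bases on linkage group 13 (bases 6419461 to 6420608). Its nearest neighbours were the uncharacterized LOC100578090, 1680 bases before it, and Eth, the precursor of ecdysis triggering hormone, 991 bases after it. FMRFamide is a gene of 6479 bases on linkage group 5 (bases 12741101 to 12747579). It lay 2339 bases after Nus1 and 1646 bases before trp, a gene for a cation channel. No annotated gene overlapped either of them, so no reads are shared with an overlapping gene by this annotation.

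The limits on cells kept 115169 of 141510 barcodes, 16761 to 20988 per library, with 110046794 to 145180530 unique molecular identifiers (UMIs) per library. The bulk libraries held 13135057 to 15177035 counts. Levels in cells are given as CPM, the UMIs of the gene per 1000000 UMIs of the same cells, and bulk levels as CPM of counts. They are not scaled for gene length, so the levels of different genes are not compared with each other. Any pair of libraries shared 77 to 130 kept barcodes, and no barcode of a high cell described below occurred in a second library. In bulk, genes of the hypopharyngeal gland and related tissue (Mrjp1, Mrjp3 and Hbg3, royal jelly proteins and an enzyme of worker glands) took 0.065% and 0.0954% of counts in queens, 2.56% and 9.2% in foragers, and 29.8% and 19.96% in nurses. That share lowers the CPM of every other gene unless the libraries are rescaled.

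In bulk brains, both peptides were lower in queens than in workers, and SIFamide was highest in foragers. SIFamide had 176 and 203 counts in queens, 373 and 381 in foragers, and 185 and 209 in nurses. After scaling by the trimmed mean of M-values (TMM), which sets the typical gene equal between libraries, these were 11.4 and 13.2 CPM in queens, 22.9 and 26.5 CPM in foragers, and 17.1 and 15.8 CPM in nurses. No queen library overlapped a worker library, and no forager library overlapped a nurse library. The fitted log2 difference of queens from workers was -0.72 (n = 2 and 4), and that of foragers from nurses was 0.59. Without the rescaling, SIFamide stood at 12.3 and 14.2 CPM in queens, 28.4 and 27.9 CPM in foragers, and 12.2 and 14.5 CPM in nurses. On that scale queens and nurses overlapped and foragers still stood above both.

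FMRFamide had 154 and 130 bulk counts in queens, 263 and 205 in foragers, and 150 and 221 in nurses. The TMM-scaled values were 9.95 and 8.43 CPM in queens, 16.1 and 14.3 CPM in foragers, and 13.9 and 16.8 CPM in nurses. The fitted log2 difference of queens from workers was -0.73 (n = 2 and 4), and that of foragers from nurses was -0.01. Queens did not overlap workers on this scale, whereas foragers and nurses did overlap. On unrescaled CPM, queens (10.8 and 9.11) overlapped nurses (9.88 and 15.4), and foragers had 20.02 and 15.03. In bulk tissue, fewer cells that make a peptide and less of its RNA per cell cannot be told apart, and the single-cell libraries were examined for each.

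**Figure D1:**
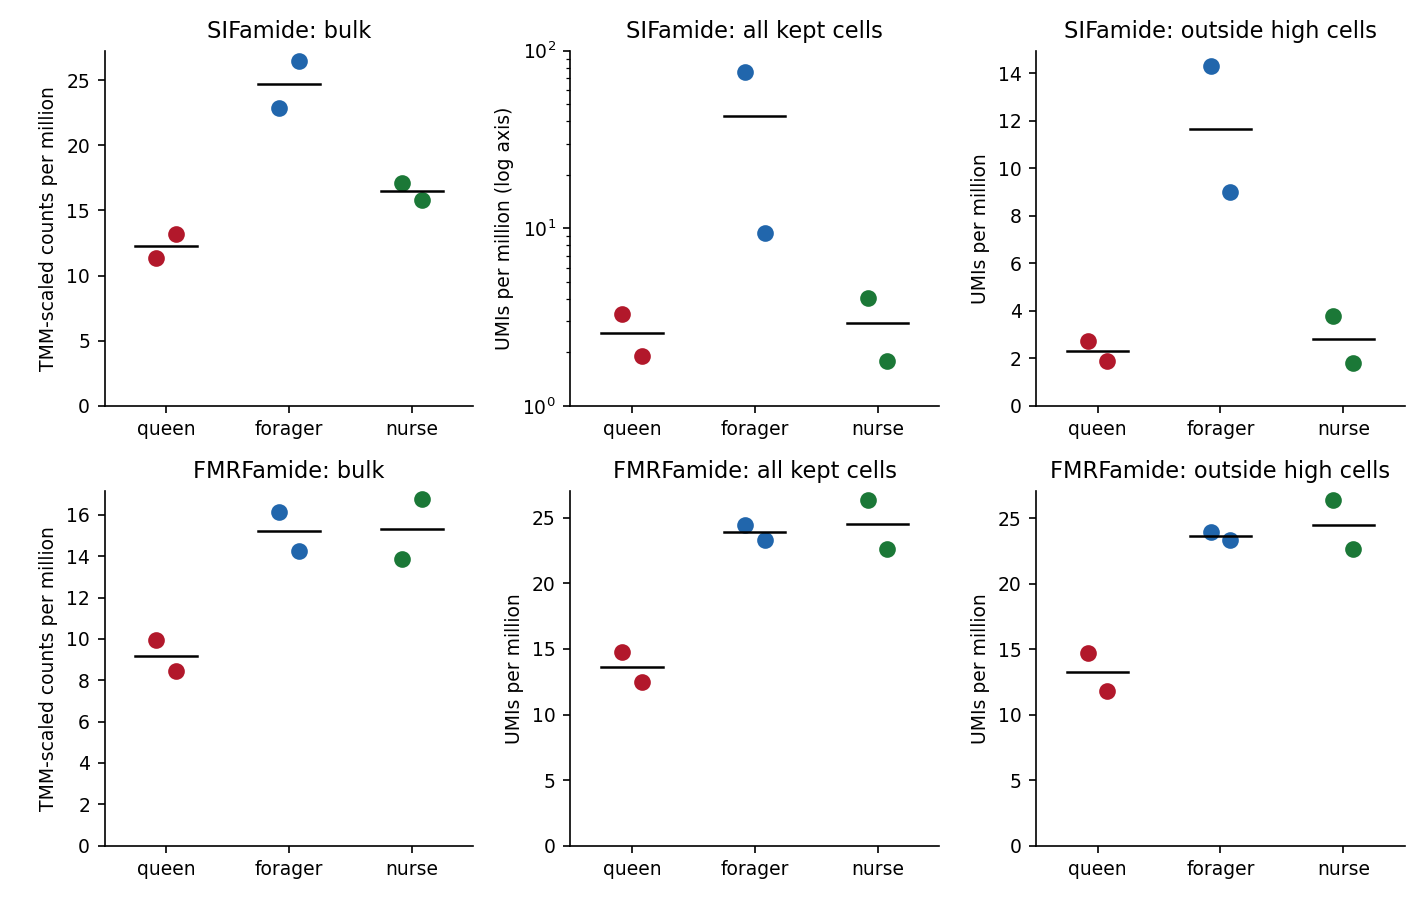
Levels of SIFamide and FMRFamide in each library, in TMM-scaled CPM (bulk) or CPM of UMIs (cells, log axis where labelled), with queens, foragers and nurses along the x axis, 1 point per library and a line at the mean of 2 libraries. In all kept cells, forager replicate 1 stood at 76.4 CPM of SIFamide, whereas FMRFamide was between 12.5 and 14.7 CPM in queens and between 22.6 and 26.4 CPM in the 4 worker libraries.

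In the single cells, SIFamide was dominated by a single library. Queens had 475 and 233 SIFamide UMIs, foragers had 8792 and 1080, and nurses had 447 and 203. As levels these were 3.27 and 1.90 CPM in queens, 76.4 and 9.38 CPM in foragers, and 4.06 and 1.80 CPM in nurses. Both forager libraries lay above all others, and they differed from each other more than queens did from nurses.

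A cell was called high for a peptide when it held at least 20 of its UMIs and these made up at least 0.5% of the cell's UMIs. By that definition 8 kept cells were high for SIFamide: 1 and 0 in queens, 5 and 1 in foragers, and 1 and 0 in nurses. A count of 0 allows up to 0.0179% of the cells of queen replicate 2 and up to 0.0153% of those of nurse replicate 2, counting error only. The 5 cells of forager replicate 1 held 81.3% of all SIFamide UMIs of that library. In the other 5 libraries high cells held between 0% and 16.2% of the SIFamide UMIs.

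The strongest SIFamide cell, from forager replicate 1, held 5623 SIFamide UMIs of 11089 in all, which was 50.7% of its RNA. It also had 40 UMIs of Vmat, the vesicular monoamine transporter, 30 of prohormone-2, 22 of allatostatin C, 20 of neuroendocrine convertase 2, which cuts peptide precursors, and 16 of allatostatin A. It had no UMI of FMRFamide. A second cell of the same library held 1141 SIFamide UMIs of 2994 (38.1%) and 6 of Vmat, and another held 303 of 2196 (13.8%) and 3 of Vmat. The other kept cells were far below these.

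Forager replicate 1 also held a cell with 57 SIFamide UMIs of 3705 and another with 20 of 3241. Queen replicate 1 had 77 of 11861 in its high cell, forager replicate 2 had 43 of 8574, and nurse replicate 1 had 30 of 2414 in a glia-like cell. The limit cut through a continuous range: the high cell nearest to the share limit had 0.502%, and a cell of forager replicate 1 with 16 UMIs at 0.802% and a cell of nurse replicate 1 with 16 UMIs at 0.591% fell just outside. With at least 50 UMIs and 1% of the cell required, 4 cells were left, all of forager replicate 1.

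Among the removed barcodes, 1 of forager replicate 1 held 5407 SIFamide UMIs of 89577, together with 5631 UMIs of eclosion hormone (LOC726377), 846 of neuroendocrine convertase 2 and 130 of allatostatin A. Eclosion hormone is a neurosecretory peptide that drives the shedding of the cuticle in insects. Other removed barcodes of that library that would have been high had 151 SIFamide UMIs of 27183, 58 of 2882 and 22 of 4274. The last of these had 35.3% mitochondrial UMIs and the one before it 28.5%, both over the limit of 15%. No removed barcode of the other 5 libraries met the definition for SIFamide.

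Outside the high cells, SIFamide was still highest in foragers. It stood at 2.74 and 1.90 CPM in queens, 14.3 and 9.01 CPM in foragers, and 3.79 and 1.80 CPM in nurses. Foragers averaged 11.7 ± 3.76 CPM, nurses 2.79 ± 1.41 CPM and queens 2.32 ± 0.60 CPM (SD, n = 2 each). Forager replicate 2, whose strongest kept cell held 43 SIFamide UMIs, also lay above all 4 queen and nurse libraries. Where the UMIs outside the high cells came from was not tested. Queens and nurses overlapped. The queen-minus-worker difference of mean log2 CPM was -1.25 outside the high cells and -1.77 with them.

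This scattered SIFamide was spread thinly. The share of cells with at least 1 SIFamide UMI was 1.42% and 0.680% in queens, 5.47% and 4.04% in foragers, and 1.62% and 0.807% in nurses. With every cell thinned to 2000 UMIs, so that depth was equal, the shares were 0.620% and 0.244% in queens, 2.44% and 1.93% in foragers, and 0.760% and 0.363% in nurses. Cells with fewer UMIs were left out of the thinned shares, 440 and 1703 in queens, 299 and 0 in foragers, and none in nurses. The order of the libraries was the same on both scales, with foragers on top.

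Most positive cells had a single SIFamide UMI: 248 of 285 in queen replicate 1, 894 of 1050 in forager replicate 1 and 254 of 301 in nurse replicate 1. The variance of UMIs per cell outside the high cells was 2.29 to 7.89 times the mean, whereas independent single molecules give a ratio near unity. In all, 101 kept cells held at least 5 SIFamide UMIs, and they were spread over 26 clusters. Of these cells 60 were Kenyon-like, the intrinsic neurons of the mushroom body, a class that made up 35.7% of all cells.

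**Figure D2:**
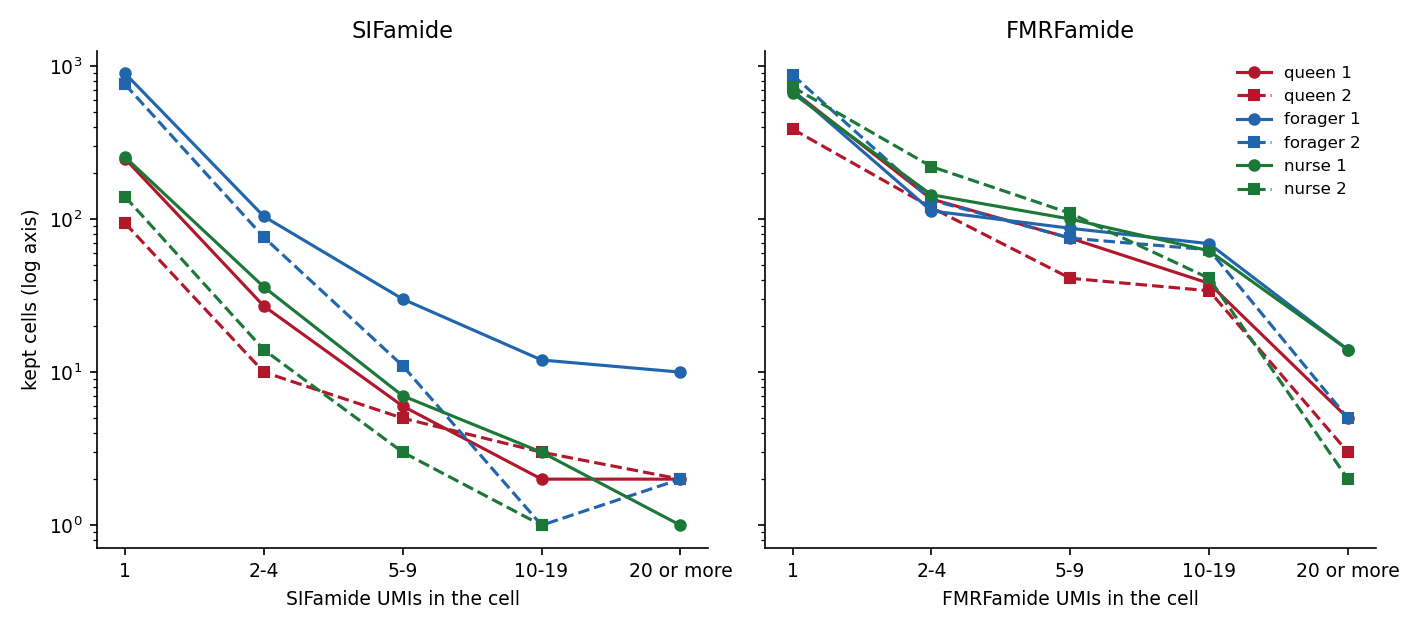
Number of kept cells (y axis, log scale) by the UMIs of SIFamide (left) and FMRFamide (right) they held, 1 line per library. Counts of 0 are not drawn, which leaves out nurse replicate 2 in the last SIFamide bin. The forager libraries had 894 and 758 cells with 1 SIFamide UMI, above the other 4 libraries, and FMRFamide had far more cells with 5 to 19 UMIs in every library.

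Cells were clustered without the 2 peptide genes, the other neuropeptides or genes called between queens and workers, which gave 40 clusters, named only from marker genes of Kenyon cells, olfactory projection neurons, glia and hemocytes. A glia-like name also required a log2 fold of the glial gene repo over 1. Cluster 2, with 7367 cells, had 6 enriched glial markers but a repo fold of only 0.82, so it is unnamed and counts here among the remaining cells, those in no glia-like or hemocyte-like cluster. SIFamide UMIs occurred at similar shares in glia-like and remaining cells. Glia-like cells had a SIFamide UMI in 1.32% and 0.350% of cells in queens, 5.83% and 3.68% in foragers, and 1.63% and 0.753% in nurses. The remaining cells had one in 1.43% and 0.699% of cells in queens, 5.44% and 4.07% in foragers, and 1.62% and 0.813% in nurses. Without cluster 2 the shares of the remaining cells were 1.39% and 0.696% in queens, 5.49% and 4.07% in foragers, and 1.61% and 0.809% in nurses. The median depth was 2092 to 3412 UMIs in glia-like cells and 4616 to 5951 in the remaining cells. The higher shares in foragers were thus seen in both. Glia-like cells, a class not known for the peptide, thus also had shares at this level. Whether such shares mark expression was not tested.

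As CPM outside the high cells, SIFamide differed between glia-like and remaining cells by -0.04 ± 0.34 on the log2(CPM + 1) scale (SD, n = 6 libraries) and was higher in glia-like cells in 3 of 6 libraries. Kenyon-like cells had 3.78 and 3.09 CPM in queens, 16.3 and 9.68 CPM in foragers, and 4.88 and 1.83 CPM in nurses. The remaining cells that were not Kenyon-like had 2.13 and 1.04 CPM in queens, 12.8 and 8.59 CPM in foragers, and 3.19 and 1.77 CPM in nurses. The mean difference was 0.44 ± 0.35 (SD, n = 6), higher in Kenyon-like cells in 6 of 6 libraries. With the high cells included the mean turned to -0.16, as the 2 strongest cells, of cluster 36, are not Kenyon-like.

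Across the 37 clusters of at least 50 cells outside clusters 28 and 36, SIFamide outside the high cells had between 1.56 CPM (cluster 38) and 12.5 CPM (cluster 2), with a median of 4.55 CPM. Counted per 1000 cells it had between 15.1 and 78.7 UMIs, with a median of 27.2. Over these clusters the rank correlation with mean depth, whose values ran from 2508 to 15409 UMIs per cell, was -0.641 for CPM and 0.183 for UMIs per cell. The clusters share the same 6 libraries, so this is a description. The higher CPM of shallow clusters was therefore not matched by more SIFamide UMIs in each of their cells.

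The 2 strongest SIFamide cells fell in cluster 36, a small unnamed cluster of 244 cells that all libraries contributed to (10 and 32 in queens, 62 and 42 in foragers, 54 and 44 in nurses). SIFamide was nearly confined there to forager replicate 1, with 6778 UMIs, against 3 in forager replicate 2 and 0 in each of the other 4 libraries. Of the 10 cells of queen replicate 1 in cluster 36, 0 had a UMI, which with so few cells leaves an exact 95% upper limit of 30.8%. For the 44 cells of nurse replicate 2 that limit was 8.04%.

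Several secretory genes were higher in cluster 36 in all 6 libraries, given as levels pooled over libraries. Prohormone-3 had 4083 CPM in cluster 36 and 835 CPM elsewhere. Vmat had 913 and 50.1 CPM, prohormone-2 had 1002 and 275 CPM, allatostatin C had 440 and 107 CPM, and neuroendocrine convertase 2 had 1380 and 636 CPM, each higher in cluster 36 in 6 of 6 libraries. Vmat was detected in 25.4% of the cells of cluster 36, against 19.5% elsewhere. The hemocyte marker Fer2LCH (783 CPM in cluster 36 and 318 CPM elsewhere) and the glial marker Tsf1 (140 and 88.4 CPM) were also higher in 6 of 6 libraries. Other peptides were uneven, with tachykinin (366 CPM in cluster 36 and 358 CPM elsewhere) higher in 3 of 6. Corazonin had 784 CPM in cluster 36 and 33.6 CPM elsewhere but was higher in 3 of 6 libraries, myosuppressin had 424 and 18.0 CPM and was higher in 4 of 6, and eclosion hormone had 735 and 1.07 CPM and was higher in 1 of 6. The neuronal gene elav stood at 3009 CPM in cluster 36 and 3532 CPM elsewhere.

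The cluster profile most like that of SIFamide over 39 clusters was that of eclosion hormone (Pearson r = 0.982), followed by LOC727546 (0.975), LOC102653910 (0.969), LOC726278 (0.968) and LOC102654729 (0.962). All 5 were highest in cluster 36. LOC102653910 had only 1.15 CPM there and LOC726278 18.4 CPM, so the likeness of LOC102653910 in particular rests on very few UMIs. SIFamide there came from a few cells of 1 library, forager replicate 1 (28084 CPM, against 19.5 CPM in forager replicate 2). Eclosion hormone there came from the other forager library, with 4158 CPM in forager replicate 2 and 0 CPM in forager replicate 1. These coefficients thus describe that cluster against the other clusters and not agreement by cell or by library. The kept cell with 5623 SIFamide UMIs had 0 eclosion hormone UMIs.

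**Figure D3:**
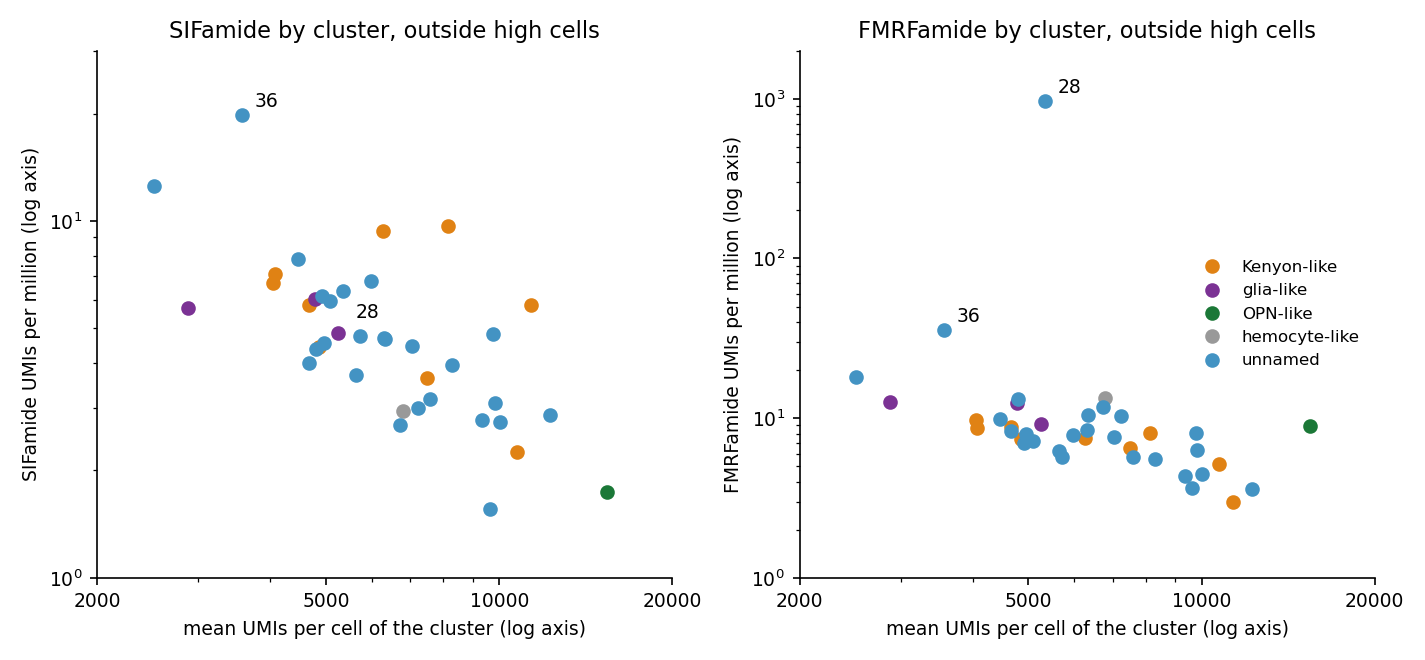
Level of SIFamide (left) and FMRFamide (right) outside high cells in each cluster of at least 50 cells, in CPM (y axis, log scale), against the mean UMIs per cell (x axis, log scale), coloured by class. FMRFamide in cluster 28 stood far above the other clusters, whose levels ran between 2.998 and 18.0 CPM apart from cluster 36.

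FMRFamide showed the opposite arrangement, with few high cells and a sizeable cluster that carried the gene in every library. Queens had 2141 and 1536 FMRFamide UMIs (14.7 and 12.5 CPM), foragers had 2815 and 2688 (24.5 and 23.3 CPM), and nurses had 2903 and 2556 (26.4 and 22.6 CPM). Queens lay below all 4 worker libraries, and foragers overlapped nurses. The queen-minus-worker difference of mean log2 CPM was -0.83. The share of cells with an FMRFamide UMI was 4.69% and 3.48% in queens, 5.08% and 5.48% in foragers, and 5.30% and 5.62% in nurses. Thinned to 2000 UMIs it was 2.34% and 1.78% in queens, 2.83% and 2.97% in foragers, and 2.92% and 3.12% in nurses.

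By the same definition 3 kept cells were high for FMRFamide: 0 and 1 in queens, 2 and 0 in foragers, and none in nurses. Queen replicate 2 had 82 UMIs of 14829 in its high cell, and forager replicate 1 had 30 of 5851 and 25 of 4983. A cell of forager replicate 1 with 37 UMIs of 7733 (0.478%) and a cell of nurse replicate 1 with 21 of 5063 (0.415%) fell just outside. With 10 UMIs and 0.25% required, 81 cells were counted, 12 and 9 in queens, 23 and 18 in foragers, and 15 and 4 in nurses. Outside the 3 high cells FMRFamide had 14.7 and 11.8 CPM in queens, 24.0 and 23.3 CPM in foragers, and 26.4 and 22.6 CPM in nurses, so the levels with and without high cells were close.

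Cluster 28, with 1700 cells and a median of 4532.5 UMIs, held 60.4% of the FMRFamide UMIs of all kept cells, and 41.2% when the removed barcodes are counted too. It matched none of the marker lists and stays unnamed. Its leading genes after FMRFamide were globin 1 (Glob1), the LIM-homeobox transcription factor gene Awh (LOC725574), Rap-2a (a small GTPase), an ERG homolog and Pax-6, a transcription factor known from eye and brain development. Its elav level was 3507 CPM, against 3531 CPM elsewhere, and that of the glial gene repo was 58.1 CPM, against 86.0 CPM elsewhere. Within cluster 28 FMRFamide had 961 and 932 CPM in queens, 1193 and 924 CPM in foragers, and 1032 and 796 CPM in nurses. In all other cells it had 7.62 and 6.31 CPM in queens, 7.64 and 10.2 CPM in foragers, and 8.69 and 8.75 CPM in nurses. The ratio of the cluster to the other cells was thus 91.0 to 156 in each library.

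FMRFamide was carried by most cells of cluster 28 rather than by a few. At least 1 UMI was found in 79.2% and 86.3% of its cells in queens, 73.9% and 64.9% in foragers, and 82.4% and 83.3% in nurses. Elsewhere the share was 2.69% to 4.51%. Of 837 kept cells with at least 5 FMRFamide UMIs, 749 lay in cluster 28. The cluster held 48.7% and 49.9% of the FMRFamide UMIs of the queen libraries, 69.2% and 57.1% in foragers, and 67.6% and 62.0% in nurses. The clustering did not use FMRFamide, so these levels were not what defined the cluster, but the cluster was singled out for them and no test is given.

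Among kept cells, queens had fewer of cluster 28 than workers and a similar level inside them. The limits on cells removed 42.1% and 57.6% of all FMRFamide UMIs in queens, more than in any worker library. Removed barcodes were not clustered, so the comparison covers kept cells only. Queens had 216 and 160 cells of cluster 28, foragers had 307 and 339, and nurses had 306 and 372. As shares of all kept cells these were 1.08% and 0.955% in queens, 1.60% and 1.62% in foragers, and 1.65% and 1.90% in nurses. The exact 95% binomial intervals, which cover counting error only, reached at most 1.23% in queens and began at 1.43% or above in the worker libraries. The share averaged 1.02 ± 0.088% in queens (SD, n = 2) and 1.69 ± 0.14% in workers (SD, n = 4). The level within the cluster averaged 947 ± 20.4 CPM in queens and 986 ± 168 CPM in workers, which overlapped. Elsewhere it averaged 6.97 ± 0.92 CPM in queens and 8.81 ± 1.03 CPM in workers, and queens, at 7.62 and 6.31 CPM, did not overlap workers, whose lowest library had 7.64 CPM. With cluster 28 left out, the queen-minus-worker difference was -0.34, against -0.83 in all kept cells.

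**Figure D4:**
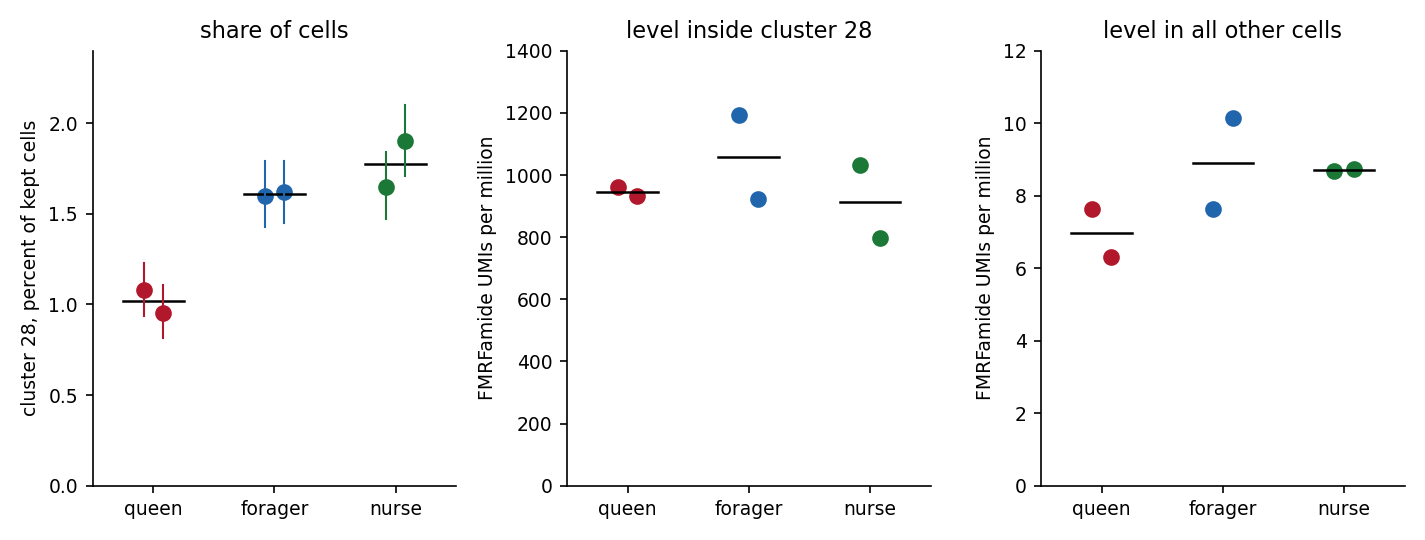
Share of kept cells in cluster 28 with exact 95% binomial intervals (left, percent), FMRFamide level inside the cluster (middle, CPM) and in all other cells (right, CPM), 1 point per library with a line at the mean of 2 libraries. The queen shares (1.08% and 0.955%) lay below those of the 4 worker libraries (1.60% to 1.90%), while the levels inside the cluster overlapped.

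The limits on cells, with the UMI limit set separately in each caste as in the study, removed unequal parts of the gene. They removed 42.1% and 57.6% of all FMRFamide UMIs in queens, 29.8% and 17.3% in foragers, and 23.6% and 16.3% in nurses. Barcodes over the UMI limit had 19.8 and 20.7 CPM of FMRFamide in queens, above the kept cells of the same libraries, and 14.2 and 8.27 CPM in foragers and 10.8 and 7.98 CPM in nurses, below the kept cells. Removed barcodes with at least 20 FMRFamide UMIs numbered 13 and 22 in queens, 8 and 3 in foragers, and 7 and 3 in nurses. Kept cells with as many numbered 5 and 3 in queens, 14 and 5 in foragers, and 14 and 2 in nurses. Over all deposited barcodes FMRFamide had 16.04 and 15.9 CPM in queens, 20.2 and 18.1 CPM in foragers, and 19.6 and 17.6 CPM in nurses, and the queen-minus-worker difference was -0.24. All limits were dropped together here, and the part of each was not tested. Queens were still lowest, by a smaller amount. Removed barcodes were not clustered, so how many of them belonged with cluster 28 was not measured.

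The barcodes richest in FMRFamide were mostly large ones. Of 21 barcodes with at least 50 of its UMIs, 20 had been removed. Their other transcripts differed. Of the 21, 9 held at least 50 allatostatin C UMIs, and 6 of these 9 also had at least 25 UMIs of Hiscl1, a histamine-gated chloride channel. At least 50 prohormone-3 UMIs were found in 9 of the 21, and 8 of these 9 also had at least 10 UMIs of VAChT, the vesicular acetylcholine transporter. Myosuppressin, a related peptide that slows visceral muscle in insects, had at least 200 UMIs in 3 of the 21, all from queens. The single richest, of queen replicate 2, held 412 FMRFamide UMIs of 62473 with 159 of Vmat, 135 of prohormone-2 and 73 of short neuropeptide F.

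FMRFamide outside cluster 28 was far lower. The 88 cells there with at least 5 UMIs included 22 of cluster 4, 13 of cluster 24 and 10 of cluster 7. Over the 37 other clusters it had between 2.998 CPM (cluster 11) and 18.0 CPM (cluster 2), with a median of 7.96 CPM, or between 32.5 and 137 UMIs per 1000 cells with a median of 45.2. Its rank correlation with mean depth was -0.604 for CPM and 0.345 for UMIs per cell, again as a description over clusters that share libraries. Averaged over libraries, it had 969 ± 124 CPM in cluster 28, 26.7 ± 26.4 CPM in cluster 36, 14.9 ± 20.3 CPM in hemocyte-like cells, 10.4 ± 3.35 CPM in glia-like cells, 8.33 ± 1.45 CPM in the other unnamed clusters, 7.63 ± 3.03 CPM in cells like olfactory projection neurons and 7.20 ± 1.73 CPM in Kenyon-like cells (SD, n = 6). All neighbours in that order except cluster 28 and the next lay within their spread.

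Kenyon-like cells had 6.31 and 4.32 CPM of FMRFamide in queens, 6.95 and 9.13 CPM in foragers, and 8.24 and 8.22 CPM in nurses. The remaining cells that were not Kenyon-like, cluster 28 included, had 20.4 and 17.9 CPM in queens, 35.5 and 34.0 CPM in foragers, and 37.2 and 30.1 CPM in nurses. The difference was -1.86 ± 0.23 on the log2(CPM + 1) scale (SD, n = 6), lower in Kenyon-like cells in 6 of 6 libraries. Without cluster 28 it was -0.22. Glia-like cells differed from the remaining cells by -0.95 ± 0.26 (SD, n = 6) and were lower in 6 of 6 libraries. Without cluster 28 that difference was 0.31, so the lower level of glia-like cells rested on cluster 28.

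At least 1 FMRFamide UMI was present in 2.45% to 4.68% of glia-like cells and in 3.54% to 5.71% of the remaining cells, at the lower depth of glia-like cells given above. The share of 2.69% to 4.51% outside cluster 28 lay within the range of glia-like cells. It includes the 88 cells with at least 5 UMIs given above. Whether the rest of it marks expression was not tested. In the whole series 2 barcodes held at least 5 UMIs of both SIFamide and FMRFamide, and 151 kept cells held at least 1 of both. Each gene was found in few cells. These counts were not compared with those that independent genes would give.

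The genes with cluster profiles most like FMRFamide over 39 clusters were Awh (LOC725574, Pearson r = 0.937), LOC725532 (0.936), LOC726929 (0.914), LOC102656276 (0.911) and LOC100578104 (0.908). Awh had 120 CPM in cluster 28 and 1.61 CPM elsewhere. LOC102656276 had only 0.1099 CPM in cluster 28, so its likeness rests on very few UMIs.

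Cluster 28 was also rich in SIFamide receptor RNA. SIFR had 551 and 682 CPM there in queens, 464 and 443 CPM in foragers, and 681 and 560 CPM in nurses. In all other cells together it had 140 to 238 CPM, and cluster 28 was higher in 6 of 6 libraries. It was not the only such cluster: pooled over libraries, SIFR had 658 CPM in cluster 16, 558 CPM in cluster 22, 557 CPM in cluster 28 and 488 CPM in cluster 33, and the ranges of these 4 over libraries overlapped. The lowest of the 39 clusters, cluster 11, had 40.6 CPM and was Kenyon-like. By class, SIFR averaged 97.3 ± 21.7 CPM in glia-like cells and 72.8 ± 25.6 CPM in Kenyon-like cells (SD, n = 6). The ranges over libraries overlapped, but within every library glia-like cells had the higher level. SIFR was available to the clustering, so its level in a cluster is a description without a test.

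**Figure D5:**
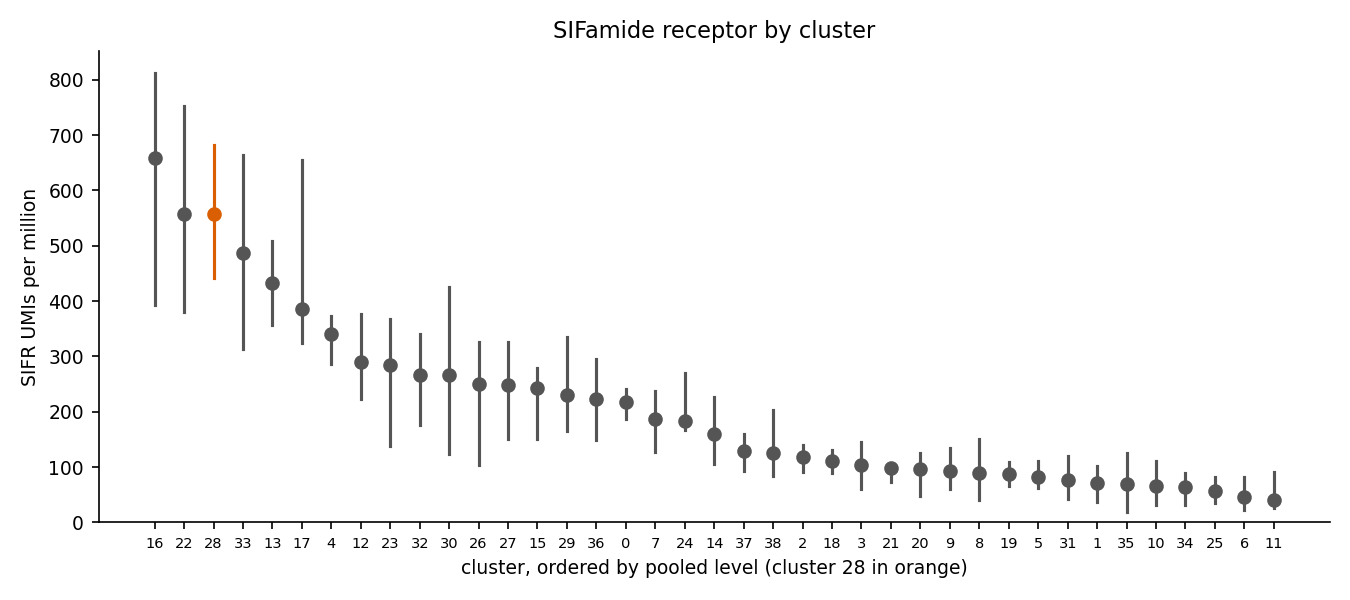
SIFamide receptor (SIFR) level in CPM (y axis) in the 39 clusters of at least 50 cells (x axis, ordered by level), with points for the level pooled over libraries and lines for the range over libraries. Cluster 28, at 557 CPM, stood below clusters 16 and 22 at 658 and 558 CPM.

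Several transmitter genes also differed between cluster 28 and the cells elsewhere. Hiscl1 had 590 CPM in cluster 28 and 98.4 CPM elsewhere, VGlut, the vesicular glutamate transporter, had 118 and 57.2 CPM, and allatostatin C had 140 and 107 CPM, each higher in 6 of 6 libraries. VAChT had 89.2 CPM in cluster 28 and 233 CPM elsewhere, Gad1, which makes GABA, had 82.7 and 138 CPM, and tachykinin had 125 and 361 CPM, each higher in 0 of 6 libraries. Neuroendocrine convertase 2 had 508 CPM in cluster 28 and 638 CPM elsewhere. Both genes that flank FMRFamide were also higher in cluster 28 in 6 of 6 libraries. Their levels were 17.2 CPM in cluster 28 and 1.06 CPM elsewhere for trp, and 37.4 and 26.4 CPM for Nus1. Whether reads of neighbouring genes mix was not tested.

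Within cluster 28 the cells differed in FMRFamide. The 749 cells with at least 5 UMIs had a median depth of 6346 UMIs, and the 382 cells with none had a median of 2926. Pooled over libraries, the 749 cells had 645 CPM of SIFR, 702 CPM of Hiscl1 and 136 CPM of VGlut, against 333, 278 and 60.7 CPM in the 382 cells. Depth differed between these sets along with the genes, and its part was not tested.

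For comparison, 27 other genes listed for peptide signalling were tested between castes: 24 of the study's neuropeptide panel, SIFR and 2 listed as convertases. Not every gene of the panel encodes a neuropeptide precursor. In bulk, 9 of the 27 differed between queens and workers (edgeR, adjusted p under 0.01 and an absolute log2 fold change over 1), against 9.71% of all genes tested. Of these 3 were higher in queens: apidaecin, an antimicrobial peptide of the panel (5.22, adjusted p = 5.46e-05), the insulin-like peptide ILP-2 (1.70, adjusted p = 0.00134) and adipokinetic hormone (1.297, adjusted p = 0.00244). The 6 lower in queens were prohormone-2 (-2.20, adjusted p = 0.00121), crustacean cardioactive peptide (-1.42, adjusted p = 0.00885), orcokinin (-1.41, adjusted p = 0.000547), prohormone-3 (-1.38, adjusted p = 0.00143), neuroendocrine convertase 2 (-1.16, adjusted p = 0.0013) and prohormone-4 (-1.01, adjusted p = 0.00167). The median log2 fold change of the list was -0.59, against -0.01 over all genes. The log2 values of SIFamide and FMRFamide, -0.72 and -0.73, lay near that median. The transmitter genes named above had -1.26 (VAChT), -0.77 (Gad1), -0.71 (Vmat) and -0.04 (VGlut). The study's other transmitter markers had -1.07 (VGAT), -0.62 (ChAT), -0.15 (TDH), 0.07 (Tdc2), 0.33 (DAT) and 0.61 (ple). Negative values were thus not particular to peptide genes, but not all transmitter genes had them. Without queen replicate 2, 4 of the 27 were called.

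In the sums of single cells, 3 of the 27 differed between queens and workers (edgeR, adjusted p under 0.01 and an absolute log2 fold change over 0.5), against 15.4% of all genes tested. Apidaecin (7.70, adjusted p = 0.000284) and prohormone-2 (0.64, adjusted p = 0.00199) were higher in queens, and LOC100577945 (-0.57, adjusted p = 0.00924) was lower. The study names LOC100577945 as furin-like protease 1, but RefSeq lists it as a long noncoding RNA, so that call may not concern a convertase. Prohormone-2 thus had opposite signs in bulk and in cells. Its bulk values were 36.9 and 20.8 CPM in queens, 149 and 108 CPM in foragers, and 143 and 130 CPM in nurses, whereas its cell sums were 332 and 364 CPM in queens, 308 and 321 CPM in foragers, and 173 and 146 CPM in nurses. The list median was 0.10, against 0.00 over all genes.

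SIFR itself had 19.96 and 15.24 CPM in bulk queens, 25.1 and 19.1 CPM in bulk foragers, and 28.2 and 33.0 CPM in bulk nurses (TMM-scaled). The log2 difference of queens from workers was -0.56 (SE 0.18, edgeR adjusted p = 0.0529), which missed the threshold. In the cell sums SIFR had 149 and 154 CPM in queens, 196 and 197 CPM in foragers, and 244 and 214 CPM in nurses. Queens lay below all workers, with a log2 difference of -0.48 (SE 0.078, edgeR adjusted p = 0.00342) that was just under the fold limit. Against nurses alone SIFR was called lower in queens in cell sums (-0.59, edgeR adjusted p = 0.00397), and against foragers alone it was not (-0.37, edgeR adjusted p = 0.017). Between foragers and nurses SIFR differed by -0.47 in bulk (edgeR adjusted p = 0.384) and by -0.22 in cell sums (edgeR adjusted p = 0.181).

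Between foragers and nurses edgeR called 0 of the 27 genes in bulk, against 0.0101% of all genes, and 0 in cell sums, against 0.0807%. At an unadjusted p under 0.05 there were 4 of the 27 in bulk (14.8%, against 13.4% of all genes) and 11 in cell sums (40.7%, against 24.1% of all genes). DESeq2 called 1 of the 27 in bulk and 98 of all genes, and 5 of the 27 in cell sums and 487 of all genes. The median log2 fold change of the list was -0.02 in bulk and 0.21 in cell sums.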

How the data were processed

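Single-cell libraries (10x Genomics, 3′) and bulk libraries were made from pooled brains. The authors ran Cell Ranger 3.1.0 and analysed the cells with Seurat 3.1.5, and deposited single-cell values are raw UMI counts for each gene in each barcode. The authors trimmed bulk reads with Trimmomatic 0.39, aligned them with STAR and deposited RSEM expected counts per gene. These were rounded here.

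Barcodes were kept, as in the study, with 200 to 5000 genes, at least 500 UMIs, a mitochondrial share under 15% and a UMI total below an upper fence per caste, set 1.5 times the interquartile range over the third quartile (23474.5 in queens, 16091.5 in foragers, 15838.2 in nurses). Doublets were not called. UMIs were scaled to 10000, 3000 variable genes and 30 components were used after leaving out 2456 genes (both peptides, the neuropeptide panel, caste-called genes), and Leiden clustering was run at resolution 1 (leidenalg 0.10.2). A marker was enriched at a log2 fold over 0.5 (5 CPM added). Clusters were named for the class whose enriched markers had the highest summed fold. At least 3 of them were required, and glia-like or hemocyte-like names also required repo or hml over a log2 fold of 1.

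Bulk counts and sums of UMIs per library were tested over all genes with the edgeR 4.0.16 quasi-likelihood test with TMM scaling in R 4.3.3, with Benjamini-Hochberg adjustment, and all 3 castes in one fit. The standard error is the log2 fold change over the root of F. DESeq2 1.42.0 was an alternative. Class differences are paired by library. Their planned sign-flip tests are not given, since the levels were among the values that chose the genes. The edgeR fits between queens and workers were tested on simulated data, and the clustering and other steps on single cells were not. The members, gene lists and cut-offs were chosen with earlier results of these data known. Genes named are the 2 members, every list gene called in a caste comparison, SIFR, the transcripts of high cells, and the 5 most alike cluster profiles per member. No label states that replicates are separate colonies, so p-values measure the spread between libraries. Of 11345 bulk genes 11266 were paired with a single-cell feature. Gene positions are from RefSeq for Amel_HAv3.1. Intervals cover counting error only.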

Additional observations from a re-analysis of the deposited data

Results flagged for a closer look

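The barcodes outside the kept cells enter only the values given for removed or for all deposited barcodes, and both peptides were present in them in every library, above the 3 UMIs that a count of 0 allows. They held 136 and 38 SIFamide UMIs in queens, 6243 and 283 in foragers, and 57 and 21 in nurses. They held 1559 and 2086 FMRFamide UMIs in queens, 1196 and 562 in foragers, and 897 and 498 in nurses. In forager replicate 1, 5407 of the 6243 SIFamide UMIs were in a single barcode.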

How the results depend on the processing

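Of 140 recomputed values, 97 kept their direction and their side of the threshold or moved little. The count includes class differences labelled by the planned sign-flip test. With a library left out that test cannot give a p under 0.05, whatever the values. For those runs the label is no measure of how stable the differences were. Alternatives named as added were chosen after seeing the data. List genes called between queens and workers in bulk ranged from 4 to 8 with each library left out (main 9, and 4 without queen replicate 2). Between foragers and nurses in bulk the count was 0, and 1 with DESeq2, 1 with size factors of the relative log expression (RLE) kind, 1 without a filter on low counts, and 0 to 1 with a library left out. In cell sums it was 0, and 5 with DESeq2 and 1 with RLE. Over all genes the counts were 964 in bulk between queens and workers (472 to 883 with a library left out), 1721 in cell sums (637 to 1645), 1 in bulk between foragers and nurses (98 with DESeq2, 6 with RLE, 10 without the filter, 1 to 6 with a library left out) and 9 in cell sums (487 with DESeq2, 4 with the replicate block, 5 over all barcodes, 1 to 14 with a library left out). With unrescaled CPM, an added alternative, the bulk log2 differences of queens from workers were -0.55 for SIFamide and -0.56 for FMRFamide.

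SIFamide in Kenyon-like cells minus the remaining cells turned to -0.16 with high cells included, and was 0.32 to 0.52 with a library left out. SIFamide in glia-like minus remaining cells was 0.016 with 5 CPM added, 0.011 without cluster 2 (an added alternative) and -0.12 to 0.084 with a library left out (0.084 without queen replicate 2). Counted as UMIs per 1000 cells, an added alternative, it was -0.61, and glia-like cells had fewer UMIs of all genes. FMRFamide was -1.92 to -1.79 in Kenyon-like minus remaining cells and -1.01 to -0.88 in glia-like minus remaining cells with a library left out, and 0.31 in glia-like minus remaining cells without cluster 28, an added alternative. High cells numbered 21, 4 and 17 for SIFamide and 81, 0 and 43 for FMRFamide with limits of 10 UMIs and 0.25%, of 50 UMIs and 1%, and of 20 UMIs with no share. The FMRFamide difference of queens from workers outside high cells was -0.34 over all barcodes. In cell sums it was -0.24 over all barcodes and -0.34 without cluster 28, both added alternatives. The cause was not tested. At a clustering resolution of 0.5 a cluster of 1692 cells held 1692 of the 1700 cells of cluster 28, and cluster 36 was not separate.

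Replicate numbers did not pair the libraries: correlations of deviations were -0.096 to 0.022 in bulk and -0.184 to 0.032 in cell sums. With the replicate block, list genes called between queens and workers were 8 in bulk (800 of all genes) and 2 in cell sums (1426 of all genes), and 0 between foragers and nurses in both (1 and 4 of all genes). The bulk differences of queens from workers with the block were -0.72 for SIFamide and -0.73 for FMRFamide. Tests of genes between high and other cells were not run, since at least 5 high cells in at least 3 libraries were needed.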
